A study of Mus musculus with 32 samples.

Results

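Bulk tumour tissue of mice whose 4T1-Luc tumours were labelled sensitive to sunitinib was compared with bulk tissue of vehicle mice, both resected at a tumour size of 1300 mm3. The members are the 4 bulk arrays titled as sunitinib sensitive and the 4 titled as not treated, 8 of the 32 arrays of the series, and all 8 lie on 1 slide. 4T1-Luc is a luciferase-marked mouse mammary carcinoma line that was injected into a fat pad of the mammary gland in Balb/C females aged 8 weeks. Treatment began 1 week later with 40 mg/kg sunitinib in PBS with DMSO, or with the drug vehicle alone. The sensitive group holds the sunitinib mice that the labels call sensitive up to day 8, numbered 2 to 5, and the vehicle mice, which are other animals, carry the same numbers and have NA as their entry for sensitivity. All 8 tumours carry the same grafted line, were minced and digested with collagenase, actinomycin D and DNase, and were passed over beads against the endothelial surface protein PECAM-1. Bulk is the digested tissue that the beads left, so endothelial cells were partly removed from it in both groups. The label sensitive rests on each animal's response during treatment, and no array of a sensitive tumour before treatment was analysed here.

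Sunitinib is a small-molecule inhibitor of receptor tyrosine kinases, among them the VEGF receptors Flt1 and Kdr on endothelial cells, the PDGF receptors on pericytes and fibroblasts, Kit, Flt3, and Csf1r on macrophages. 4T1 is a basal-like, strongly metastatic carcinoma line that draws many neutrophils and macrophages into its tumours. In bulk RNA of such a tissue, fewer cells of a type and less RNA per cell cannot be told apart.

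The bulk arrays carried the tissue that the labels name: all 18 tumour epithelial markers passed the filter on dim genes, and the keratin gene Krt18 had log2 levels of 8.44 to 9.28. Levels here are log2 signals from which the array's own 75th percentile was subtracted, so that 0 is the level of that percentile, and a negative level is a dimmer gene. The share of probes well above background, the scanner software's own call, was 82.4%, 74.7%, 69.9% and 74.2% on the sensitive arrays of mice 2 to 5 and 70.2%, 66.3%, 65.7% and 69.7% on the vehicle arrays. The mean difference of 7.33 percentage points had p = 0.0571 in a two-sided exact permutation test over arrays, where 4 against 4 can go no lower than 0.0286. All sensitive arrays lie in column 1 of the slide and all vehicle arrays in column 2, so column and treatment cannot be told apart. The vehicle array of mouse 3 stands apart from the other 3 vehicle arrays, as described below, and the results that turn on it are given with and without it.

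Of 16566 genes tested, 4 rose in the sensitive tumours and 0 fell, 0.0241% of the genes tested, at an adjusted p under 0.05 (limma, Benjamini-Hochberg over all genes tested). They are Tfap2b, Plb1, Cntnap3 and Spata31d1c. All 4 were well above background on 4 of 4 sensitive arrays and on 0 of 4 vehicle arrays, so each rise is given as a lower bound. For a bound, each vehicle array took the higher of the gene's level and the dimmest signal that counted as well above background. A bound holds for this scaling and background subtraction only, and other processing can give a smaller rise. The p printed beside a bound, here and below, belongs to the fitted difference, which uses vehicle values that were not well above background. The bounds themselves were not tested. At an unadjusted p under 0.05 there were 1340 genes with a higher mean in the sensitive tumours, 8.09% of those tested, and 491 with a lower mean, 2.96%. The arrays of the groups did not overlap for 890 genes in the higher direction (5.37%) and for 285 in the lower direction (1.72%). The split of the unadjusted calls depended on the scaling: 73.2% of 1831 were higher with the 75th percentile, 79.1% of 2061 with normexp background correction, 54.6% of 1593 with quantile scaling, 53.4% of 1757 in the deposited table and 49.9% of 1341 with median scaling. Over all genes tested the median difference was 0.05, and 57.1% of them had a higher mean in the sensitive tumours. Without sensitive mouse 3 or 5 or vehicle mouse 3, 4 or 5, 0 genes passed. Leaving out sensitive mouse 2 gave 1, Tfap2b, and leaving out sensitive mouse 4 gave 2, Tfap2b and a gene that is not among the 4. Leaving out vehicle mouse 2 gave 24, with all 4 among them. Without vehicle mouse 3 there were 1501 genes higher (9.06%) and 757 lower (4.57%) at an unadjusted p under 0.05.

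**Figure D1:**
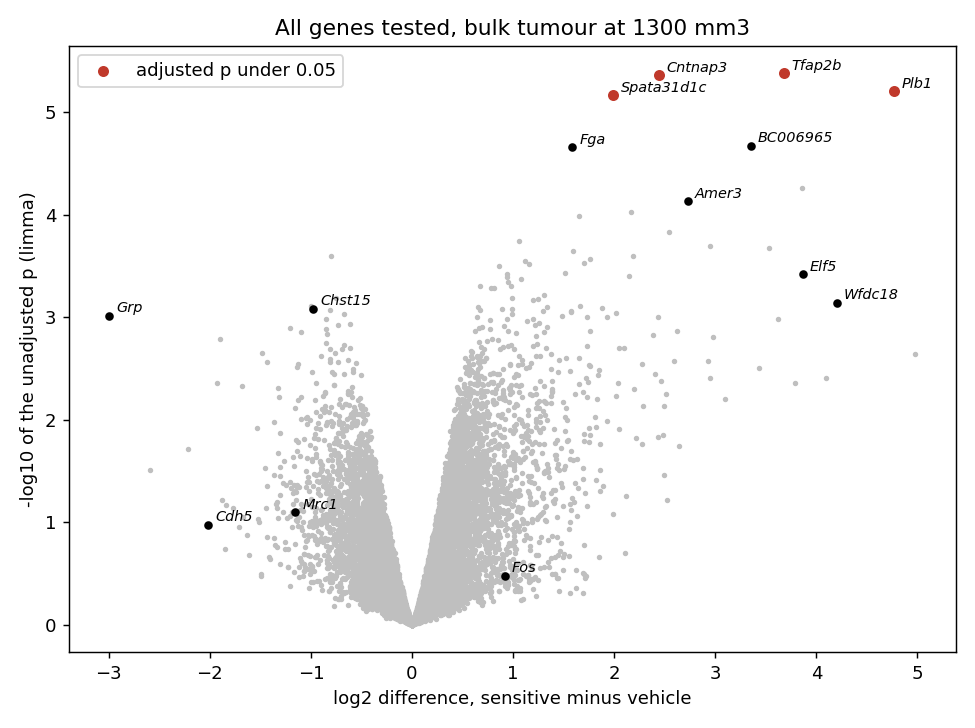
Log2 difference of each of the 16566 genes tested (x axis, sensitive minus vehicle) against -log10 of its unadjusted p from limma (y axis), with some of the genes that the text describes named. The 4 red points, Tfap2b, Cntnap3, Plb1 and Spata31d1c, are the genes with an adjusted p under 0.05, and all lie on the right side.

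Tfap2b encodes AP-2 beta, a transcription factor of luminal mammary cells and of neural crest (chromosome 1, 19208908 to 19238845, GRCm38.p6). Its level was -2.39, -3.82, -4.16 and -3.30 in the sensitive tumours of mice 2 to 5 and -7.29, -7.17, -7.26 and -6.67 in the vehicle tumours. The groups lay far apart and did not overlap, and the vehicle values are below the background of their arrays. The mean was -3.42 ± 0.77 (SD, n = 4) against -7.10 ± 0.29 (SD, n = 4), and Tfap2b was at least 3.22-fold higher in the sensitive tumours (adjusted p = 0.0283, limma). Without vehicle mouse 3 the fitted difference was 3.65 (SE 0.41), beside 3.68 (SE 0.36) with all 8 arrays, and its adjusted p was 0.0998.

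Plb1 encodes an intestinal and epidermal phospholipase B that splits fatty acids from phospholipids (chromosome 5, 32232691 to 32364356). Its level was -0.90, -1.80, -1.22 and -1.69 in the sensitive tumours and -4.77, -6.94, -7.06 and -5.92 in the vehicle tumours. All sensitive tumours were above all vehicle tumours, among which mouse 2 was the highest. The means were -1.40 ± 0.42 (SD, n = 4) and -6.17 ± 1.07 (SD, n = 4), and Plb1 was at least 12.2-fold higher with this scaling (adjusted p = 0.0283, limma). The size depends on the processing: the log2 difference was 4.77 (SE 0.49) here, 2.11 with normexp, 2.52 in the deposited table and 2.66 with the mean of its probes. For Tfap2b it was 1.37 with normexp and 1.75 in the deposited table.

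Cntnap3 encodes a neurexin-like adhesion protein of neurons (chromosome 13, 64737591 to 64904029), and Spata31d1c belongs to a family of genes named for spermatogenesis (chromosome 13, 65033058 to 65038004). Cntnap3 had levels of -4.23, -5.23, -4.71 and -4.66 in the sensitive tumours and of -6.78, -7.13, -7.20 and -7.50 in the vehicle tumours. Spata31d1c had levels of -4.86, -5.09, -4.83 and -4.58 against -6.62, -7.13, -7.13 and -6.43. Neither pair of groups overlapped, yet even the sensitive levels of both genes are near the background of the arrays. Cntnap3 was at least 1.32-fold higher and Spata31d1c at least 1.21-fold higher, from group means of -4.71 and -7.15 and of -4.84 and -6.83. The adjusted p of 0.0283 for both (limma) belongs to the fitted log2 differences of 2.44 and 1.99, not to these bounds. These sizes depend on the processing too. Cntnap3 differed by 0.65 with normexp and by 0.54 in the deposited table, and Spata31d1c by 0.56 and 0.41. Spata31d1c has close relatives in the mouse genome, and which of them its probe also binds was not tested.

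The 6 genes next in order of p did not pass, and their arrays did not overlap either. BC006965, a long non-coding RNA gene, had levels of -2.04, -3.44, -4.05 and -3.26 against -6.08, -6.54, -7.03 and -6.53, which makes it at least 3.76-fold higher in these samples (means -3.20 and -6.55, adjusted p = 0.0608, limma). Defb1, an antimicrobial beta-defensin of epithelia, had levels of -2.76, -2.24, -4.28 and -2.05 against -7.03, -6.94, -7.14 and -5.64, at least 4.84-fold higher (means -2.83 and -6.69, adjusted p = 0.131, limma). Both were dim in every vehicle tumour and measured in every sensitive one, as the called genes were. The filter fixes this pattern: it needs 4 of the 8 arrays, so a tested gene dim in every vehicle tumour must be measured in every sensitive one. Bricd5 was at least 3.64-fold higher (means -3.25 and -5.41, adjusted p = 0.172, limma). Fga, the fibrinogen alpha chain, was well above background on all 8 arrays, with levels of -1.34, -1.61, -1.37 and -1.34 against -2.51, -3.29, -3.04 and -3.17. Its difference was 1.59 (SE 0.19, adjusted p = 0.0608, limma), but its dimmer probe differed by 0.40. Amer3, a regulator of APC and WNT signalling, had levels of 0.05, 0.17, 0.42 and 0.21 against -1.23, -2.98, -3.14 and -2.72, a difference of 2.73 (SE 0.39, adjusted p = 0.153, limma). Gm10389, a predicted gene, differed by 1.65 (SE 0.25, adjusted p = 0.172, limma).

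In the other direction the 10 genes with the smallest p are given as values, since none passed. Grp, the gene of gastrin-releasing peptide, a growth-promoting neuropeptide, had levels of -4.26, -3.88, -3.57 and -3.16 in the sensitive tumours and of -2.59, 0.60, -0.11 and -0.80 in the vehicle tumours. The vehicle tumours differed widely among themselves and all lay above the sensitive ones, with a difference of -2.99 (SE 0.61, adjusted p = 0.265, limma). Chst15, a sulfotransferase of chondroitin sulfate, had levels of -2.05, -2.03, -1.51 and -1.69 against -0.76, -1.07, -1.04 and -0.50, a difference of -0.98 (SE 0.20, adjusted p = 0.265, limma). Ercc6, a factor of transcription-coupled DNA repair, differed by -1.0 (SE 0.20), and the phospholipid flippase gene Atp11b by -0.80 (SE 0.14, adjusted p = 0.238, limma). Nufip2, Zfp992, Zfp957, Cdc42se1, 4932438A13Rik and Edem2, a gene of the degradation of misfolded glycoproteins, differed by -0.85 to -0.61. The other probes of Cdc42se1 differed by 0.25 and 0.06.

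Genes of the secretory mammary epithelium, the cells that make milk during lactation, mostly had a higher mean in the sensitive tumours. The lists were chosen with earlier results of these data known, so the counts of this list describe it and are no support. Of the 19 listed genes 13 passed the filter on dim genes, 11 of them had a higher mean in the sensitive tumours, and none passed the adjusted test. The list's median difference was 0.48, beside 0.05 over all genes tested, and 0.33 without vehicle mouse 3. At an unadjusted p under 0.05 there were 4 of 13 higher, Elf5, Wfdc18, Wap and Mfge8, and 0 lower, where 8.09% of all genes were higher at that p. Elf5 and Wap were well above background on 2 and 1 of 4 vehicle arrays, so they passed the filter only through the sensitive arrays. The list's mean level was 2.08, 1.72, 1.54 and 2.19 in the sensitive tumours of mice 2 to 5 and 1.28, 0.43, 0.80 and 1.38 in the vehicle tumours, so that the groups did not overlap. The sensitive arrays also had the higher share of probes well above background (75.3% against 68.0% on average), and its part in this pattern was not tested.

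Elf5, an ETS transcription factor that directs the alveolar cells of the mammary gland toward milk production, and Wfdc18, a secreted whey acidic protein family member, carried most of the size of this pattern. Both promoters are shown because these genes had the largest differences of the list and moved together. The 250 bases before the first RefSeq start of each (GRCm38.p6, plus strand, Elf5 at chr2:103411848-103412097 and Wfdc18 at chr11:83708754-83709003) read, 5′ to 3′, with a TATAAA match in capitals:
Elf5: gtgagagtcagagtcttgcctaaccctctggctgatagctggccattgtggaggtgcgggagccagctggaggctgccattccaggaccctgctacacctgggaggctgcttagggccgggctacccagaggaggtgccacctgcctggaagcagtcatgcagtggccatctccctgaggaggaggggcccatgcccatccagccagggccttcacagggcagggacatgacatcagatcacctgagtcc
Wfdc18: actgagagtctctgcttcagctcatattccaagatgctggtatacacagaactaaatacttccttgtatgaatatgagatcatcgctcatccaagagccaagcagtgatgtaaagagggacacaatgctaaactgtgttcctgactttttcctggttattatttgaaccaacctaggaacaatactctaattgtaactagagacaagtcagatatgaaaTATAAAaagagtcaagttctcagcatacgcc

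The motifs searched, on both strands, were GCCNNNGGC, the palindrome that AP-2 factors such as Tfap2b bind, TTCNNNGAA, the palindrome of STAT factors, and TATAAA, the TATA box. Wfdc18 holds 1 TATAAA, which starts 31 bases before the start site, a match found in 12.4% of the 32851 such windows of the RefSeq table. Neither promoter holds GCCNNNGGC (13.7% of all windows) or TTCNNNGAA (7.02%), which says only that these letters are not in these windows. No motif overlaps another in either sequence.

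Elf5 had levels of 1.07, -0.99, -1.30 and 0.40 in the sensitive tumours of mice 2 to 5 and of -2.84, -4.97, -5.17 and -3.30 in the vehicle tumours, where 2 of 4 arrays were well above background. The groups did not overlap, and in both the tumours of mice 2 and 5 were the higher ones. The difference was 3.87 (SE 0.69, adjusted p = 0.247, limma) and 3.57 (SE 0.73) without vehicle mouse 3. Wfdc18 had levels of 2.63, 1.62, 1.99 and 3.30 against 0.07, -3.76, -2.90 and -0.69. Again all sensitive tumours lay above all vehicle tumours, and mice 2 and 5 were the higher in each group. Its difference was 4.20 (SE 0.82, adjusted p = 0.265, limma) and 3.55 (SE 0.70) without vehicle mouse 3.

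The milk protein gene Wap itself was dim, at -4.00, -3.98, -4.24 and -4.36 against -4.84, -5.17, -5.33 and -4.79, and 1 of 4 vehicle arrays was well above background. Its difference was 0.89 (SE 0.18, adjusted p = 0.265, limma). Mfge8, a milk fat globule protein that also bridges dying cells to phagocytes, was bright, at 7.44, 7.54, 7.37 and 7.21 against 6.6, 6.96, 6.74 and 6.58. It differed by 0.67 (SE 0.15, adjusted p = 0.306, limma), and neither gene's groups overlapped. The other 9 members tested ranged from -0.57 (Xdh) to 0.66 (Aqp5), with Lalba at 0.48, Prlr at 0.66, Muc1 at 0.34, Lcn2 at 0.32 and Ltf at -0.02.

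Spdef, Cited1 and Ptn were chosen after their values were seen, as other genes known from luminal or hormone-responsive mammary epithelium, and add no support. Cited1, a transcriptional coregulator, had levels of 2.65, 2.00, 2.42 and 2.84 against 0.86, -1.21, -1.42 and -0.10, a difference of 2.94 (SE 0.48, adjusted p = 0.238, limma). Ptn, the growth factor pleiotrophin, differed by 3.53 (SE 0.58) by its brighter probe and by 3.16 by the other. Spdef, an ETS factor of secretory and luminal cells, differed by 1.70 (SE 0.29). None of the 3 passed, and none had overlapping groups.

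**Figure D2:**
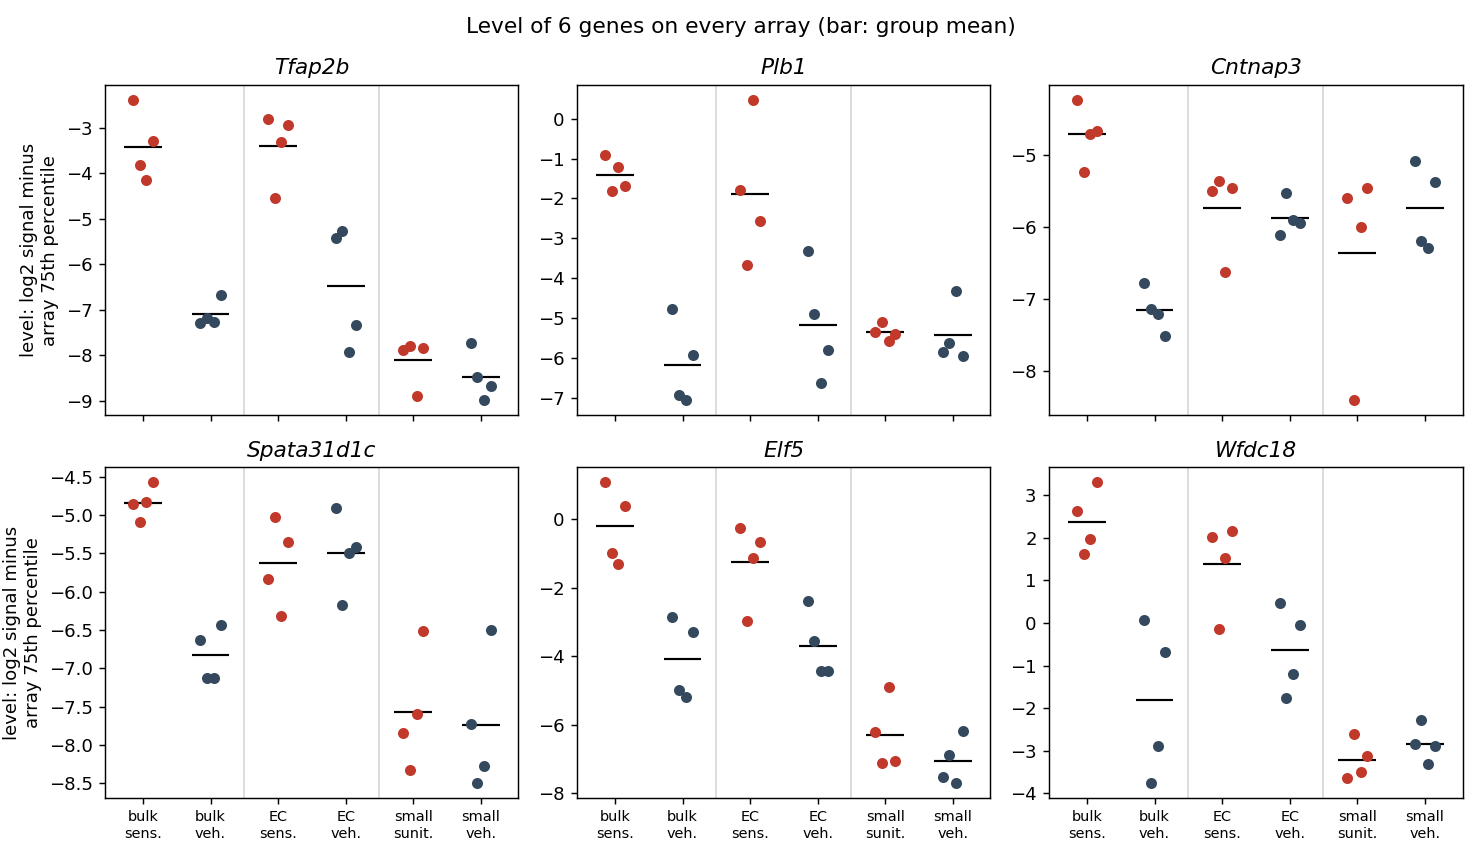
Level of 6 genes (y axis, log2 signal relative to the array's 75th percentile; the scale differs between panels) on the 8 bulk arrays at 1300 mm3, the 8 EC arrays of the same mice and the 8 bulk arrays of smaller tumours (4 of day 9 and 4 of 600 mm3), with 1 point per array, red for sunitinib, dark for vehicle, and a bar at the mean. In bulk at 1300 mm3 no red point overlaps a dark one, for Elf5 at -1.30 or above against -2.84 or below, while in smaller tumours the groups overlap in every panel.

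The PECAM-1 selected fraction, called EC here, came from the same 8 tumours and so is no independent set of animals. There 0 of 17933 genes passed (0%) in limma, with 1351 at an unadjusted p under 0.05. Tfap2b and Plb1 were well above background on 2 of 4 vehicle EC arrays each, so their differences there are partly against background. Tfap2b, Plb1, Elf5 and Wfdc18 had EC differences of 3.08 (SE 0.64), 3.28 (SE 0.92), 2.44 (SE 0.63) and 2.04 (SE 0.61), none of which passed (adjusted p = 0.461 to 0.493, limma). BC006965 was at least 3.69-fold higher in EC (means -3.72 and -6.14) and Defb1 at least 3.94-fold (means -3.76 and -6.60). Cntnap3 differed by 0.14 (SE 0.28) in EC and Spata31d1c by -0.13 (SE 0.33), but both were near background there, well above it on 3 and 1 and on 2 and 3 of 4 arrays, so these values do not show that no rise occurred. Fga differed by -0.03 (SE 0.15), and Amer3 by -0.22 (SE 0.39). The test of the difference between fractions within mice called none of these 8 genes, nor Elf5 or Wfdc18: the adjusted p was 0.191 for Cntnap3, 0.180 for Spata31d1c, 0.139 for Fga, 0.286 for Amer3, and 0.793 for Tfap2b (limma). It called 1 of 18118 genes (0.00552%), H2-M10.2, which was too dim to be tested in bulk.

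Bulk tumours resected at day 9 or at 600 mm3 came from other mice that received the same drug or vehicle, 2 of each treatment per stage, and their sunitinib mice were labelled sensitive too. In them 0 of 17443 genes passed (0%, with 1722 at an unadjusted p under 0.05, limma). Plb1 differed by 0.07 (SE 0.34), Elf5 by 0.76 (SE 0.56) and Wfdc18 by -0.39 (SE 0.28) between sunitinib and vehicle, and Tfap2b was well above background on 0 of these 8 arrays. Elf5 was so on 1 of 4 sunitinib and 1 of 4 vehicle arrays, so its values there, and the contrast of stages built on them, are mostly at background. The difference between the effect at 1300 mm3 and that in smaller tumours was 4.70 (SE 0.66) for Plb1 (adjusted p = 0.0639, limma), 3.11 (SE 0.99) for Elf5 and 4.59 (SE 0.99) for Wfdc18, and none passed. That test called 1 of 18074 genes (0.00553%), Avpr1b, a vasopressin receptor gene too dim to be tested within either set of bulk tumours, so its difference of 1.97 (SE 0.23) rests on values near or below background. The smaller tumours lie on another slide, so slide and stage cannot be told apart there. The sets also differed widely in other genes. Fos, a gene of the rapid stress response, was at 0.60 to 2.81 in the smaller tumours and at 5.31 to 6.45 in the sensitive tumours at 1300 mm3. The cytokine gene Tnf was at -3.51 to -1.95 and at 3.58 to 4.07. Whether the tissue was prepared alike was not tested, so the contrasts of stages may not compare like tissue.

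Receptors that sunitinib inhibits were described next, because they are the drug's targets. Of 9 listed receptor genes 7 were tested, 3 had a higher mean in the sensitive tumours, none passed, and the median difference was -0.03. Kdr, the main VEGF receptor, had levels of 3.85, 3.68, 3.92 and 4.27 against 3.79, 3.72, 3.08 and 3.59 by its brighter probe, a difference of 0.38 (SE 0.21), while its other probe differed by -1.06. The groups overlapped, and the probes of Kdr thus disagree in sign. The brighter probe had similar levels in EC, 3.62 to 4.12, whereas the endothelial gene Cdh5 was at 3.48 to 4.77 in EC and at -4.76 to 1.64 in bulk. How far the Kdr probe reads endothelial cells was not tested, so its difference cannot be read as an endothelial one. Flt1, the other main VEGF receptor, differed by 0.24 (SE 0.36), or 0.46 without vehicle mouse 3, Kit by 0.34 (SE 0.55), Csf1r by -0.37 (SE 0.44), Pdgfrb by -0.68 (SE 0.40), or -0.43 without it, and Pdgfra by -0.03 (SE 0.30). Flt3, a receptor of dendritic cell precursors, had levels of -1.97, -2.71, -2.52 and -2.84 against -1.0, -2.94, -1.81 and -0.77. Its difference of -0.88 (SE 0.45) became -1.32 (SE 0.30) without vehicle mouse 3, and its dimmer probe differed by 0.04.

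Of the ligands of these receptors, 13 were tested and 8 had a higher mean, with a median of 0.04. Kitl, the ligand of Kit, had levels of 0.05, 0.14, -0.60 and 0.40 against -0.59, -1.24, -1.05 and -0.74, a difference of 0.90 (SE 0.24, adjusted p = 0.318, limma). Its groups overlapped only narrowly, and Pdgfb, a ligand of the PDGF receptors, differed by -0.68 (SE 0.44). Vegfa, the main VEGF ligand, had levels of 3.86, 3.74, 4.50 and 3.36 against 4.83, 2.59, 4.84 and 4.18, a difference of -0.24 (SE 0.50) that was -0.75 (SE 0.30) without vehicle mouse 3. Its other probe differed by 0.03 with all 8 arrays. Genes of the VEGF response and tip cells, the cells that lead a vessel sprout, had a median of -0.23 over 23 genes, or -0.073 without vehicle mouse 3, with the coreceptor Nrp1 at -0.90 (SE 0.29) and the collagen gene Col4a1 at -0.58 (SE 0.25), or -0.35 (SE 0.18) without it. The Notch list, 13 genes tested, had a median of 0.09, with the ligand Jag1 at -0.82 (SE 0.33) and the endothelial receptor Notch4 at -1.10 (SE 0.55), or -0.48 (SE 0.19) without that array. Among 19 other pro-angiogenic factors the median was -0.04, with Hgf, a growth factor of stromal cells, at -0.94 (SE 0.39) and the receptor gene Axl at -0.25 (SE 0.23). No gene of these lists passed the adjusted test.

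The vehicle array of mouse 3 differed from the other vehicle arrays in whole groups of genes, and several lists turn on it. Its mean level of 24 endothelial markers was 1.34, against -1.87, -2.31 and -1.79 in the other vehicle tumours and -2.08, -2.23, -1.14 and -2.56 in the sensitive ones. Cdh5, the endothelial junction cadherin, had a level of 1.64 there and of -3.48, -2.34 and -3.33 in the other vehicle tumours. Its 19 immediate early genes, which respond within minutes to stress and growth signals, had a mean level of 1.78, against 4.73, 4.92 and 4.80 in the other vehicle tumours and 4.31 to 4.64 in the sensitive ones. Its 23 inflammatory cytokine genes had a mean level of -0.13, against 2.99, 2.91 and 2.83. The same array was the lowest in T and NK cell genes (-0.82 against 2.54, -0.10 and 1.98 in the other vehicle tumours), in neutrophil genes (1.02 against 3.40, 2.16 and 4.42) and in heat shock genes (4.65 against 5.40, 5.86 and 5.35), and the highest in skeletal muscle genes (0.46 against -2.47, -2.46 and -1.33). Its mean correlation with the other vehicle arrays over all genes tested was 0.955, the lowest of the 8, beside 0.962 to 0.980 for the others. In some genes, most of them chosen after their values were seen, this array lay within the range of the bulk arrays of smaller tumours. Fos was 1.95 on it and 0.60 to 2.81 in smaller tumours, and Tnf was -2.80 and -3.51 to -1.95. Cxcl2 was -3.39 and -4.35 to -0.21, and Cdh5 was 1.14 to 1.73 in the smaller vehicle tumours. The part of dissection, digestion and bead selection in this was not tested.

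**Figure D3:**
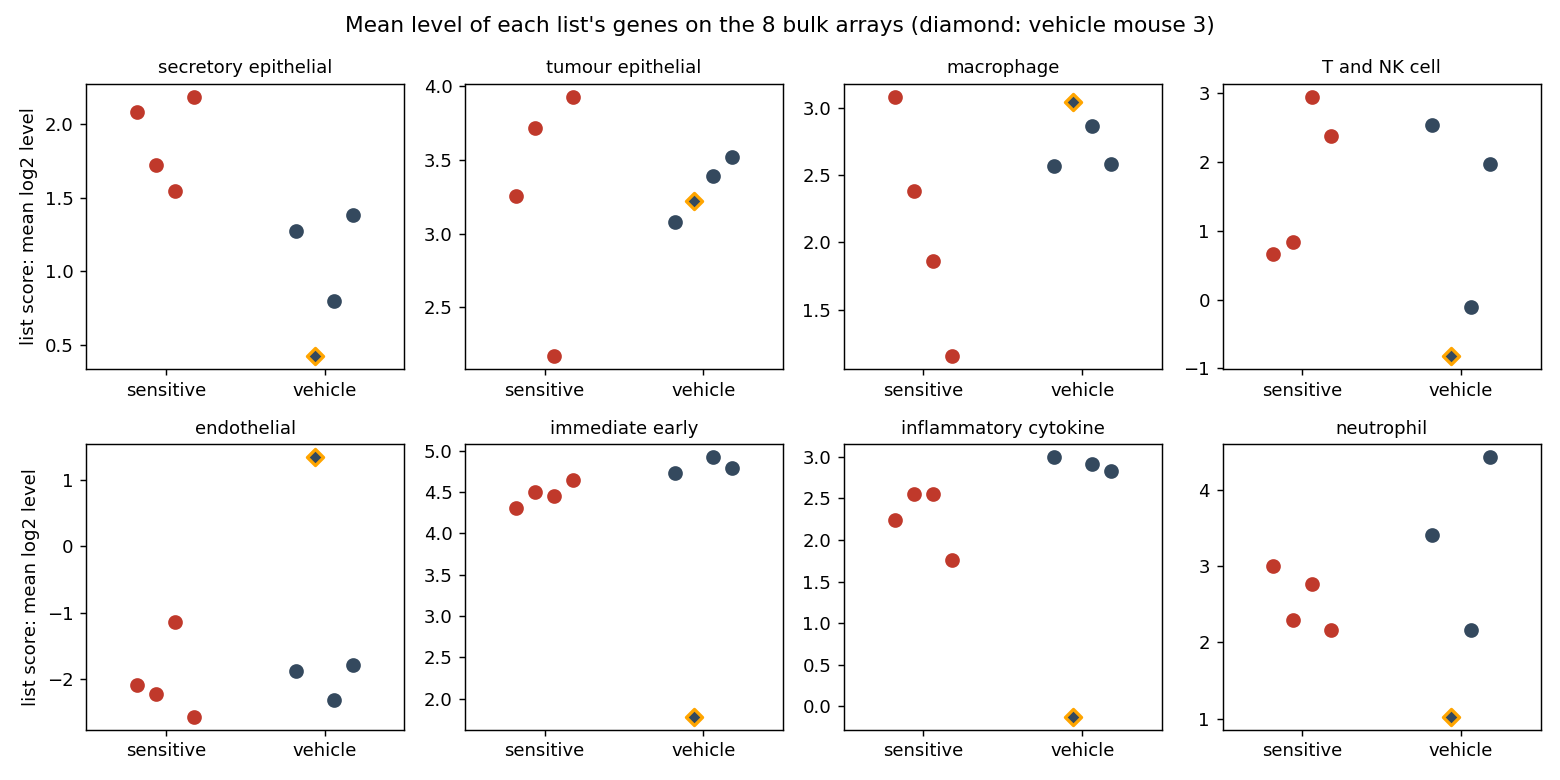
Mean log2 level of the genes of 8 lists (y axis, the scale differs between panels) on each bulk array, with the 4 sensitive tumours in red, the 4 vehicle tumours dark, and vehicle mouse 3 as a diamond. The diamond lies far from the other vehicle tumours in the endothelial (1.34), immediate early (1.78) and inflammatory cytokine (-0.13) panels. The secretory epithelial groups do not overlap, and there the diamond is the lowest vehicle tumour.

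Endothelial genes had a lower mean in the sensitive tumours for 23 of 24 members tested, with a median of -0.82 (beside 0.05 over all genes tested), but 0.02 without vehicle mouse 3, where 13 of 24 were higher. Cdh5 differed by -2.02 (SE 1.12), and by -0.85 (SE 0.62) without that array. Tie1, an endothelial receptor kinase, differed by -1.36 (SE 0.85) and -0.47 (SE 0.46), and Pecam1, the gene of the protein used for selection, by -0.55 (SE 0.35) and -0.27 (SE 0.29). None passed. Without vehicle mouse 3 there were 2 genes at an unadjusted p under 0.05, Nos3 at 0.45 and Clec14a at 0.42, a share near the 9.06% of all genes higher in that fit, and 0 lower. Of 7 lymphatic endothelial genes 2 were tested, Pdpn at -0.53 (SE 0.39) and Lyve1 at -0.23 (SE 0.35). Mural cell genes, those of pericytes and smooth muscle, had a median of -0.20, or 0.06 without vehicle mouse 3. The contractile myosin gene Myh11 had levels of -1.37, -2.54, -1.76 and -2.24 against -2.87, -3.02, -3.55 and -2.71, a difference of 1.06 (SE 0.29, adjusted p = 0.318, limma), and the pericyte gene Rgs5 differed the other way, by -1.27 (SE 0.47).

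Immediate early and cytokine genes changed sides with that array. With all 8 arrays 15 of 19 immediate early genes had a higher mean in the sensitive tumours (median 0.56), and 0 were past an unadjusted p of 0.05. Without vehicle mouse 3 the median was -0.40, 4 of 19 were higher, and 4 were lower at an unadjusted p under 0.05 (4.57% of all genes were), namely Btg2, Junb, Zfp36 and Fosb. That array was set apart partly by its low levels of these same genes. Leaving it out raises their vehicle mean and narrows their vehicle spread, so these counts describe the fit and are no independent support. Btg2, an anti-proliferative gene, had levels of 2.67, 2.43, 2.42 and 2.96 in the sensitive tumours and of 3.77, 1.90, 3.75 and 3.92 in the vehicle tumours. The lowest vehicle value is that of mouse 3, and the others lie above every sensitive tumour. Its difference was -0.71 (SE 0.43) and, without mouse 3, -1.19 (SE 0.18, adjusted p = 0.228, limma). Junb, a subunit of AP-1, differed by 0.00 (SE 0.75) and -0.87 (SE 0.23), and Fos, another, by 0.92 (SE 0.89) and -0.11 (SE 0.27). The rule for named genes also gave Klf6 at 0.79 (SE 0.41) and Jun at 0.92 (SE 0.51), with 0.35 (SE 0.21) and 0.39 (SE 0.29) without mouse 3.

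The 23 inflammatory cytokine and chemokine genes tested had a median of 0.02 with all arrays and of -0.61 without vehicle mouse 3. In the second case 2 of 23 had a higher mean, and 6 were lower at an unadjusted p under 0.05, where 4.57% of all genes were: Il10, Csf3, Tnf, Lif, Osm and Cxcl2. Low levels of this list also set that array apart, so these counts are no independent support either. Csf3, the granulocyte growth factor G-CSF, had levels of 1.90, 2.14, 2.81 and 3.00 against 3.96, 0.78, 4.77 and 3.52. Cxcl2, a neutrophil-attracting chemokine, had levels of 4.16, 4.32, 4.71 and 3.08 against 5.50, -3.39, 4.53 and 5.24, so mouse 3 was lower by a wide margin than every other tumour. Csf3 differed by -0.79 (SE 0.76) with and by -1.62 (SE 0.37) without it, Il10 by -0.60 (SE 0.50) and -1.15 (SE 0.22), Tnf by 1.2 (SE 1.5) and -0.58 (SE 0.19), and Cxcl2 by 1.10 (SE 1.8) and -1.02 (SE 0.40). None passed an adjusted test in either fit. The chemokines Ccl11 and Ccl8, which the rule names, differed by -0.65 (SE 0.41) and -1.05 (SE 0.67), or by -0.39 and -0.69 without mouse 3.

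Of 15 macrophage genes tested, 14 had a lower mean in the sensitive tumours, with a median of -0.64, or -0.62 without that array, and 2 were lower at an unadjusted p under 0.05 (2.96% of all genes were), C1qb and Adgre1, but 0 without that array. The median was -0.35 without sensitive mouse 5 and -1.02 without sensitive mouse 2. C1qb, a complement chain made by macrophages, had levels of 4.03, 3.19, 2.39 and 2.05 against 3.56, 5.12, 4.54 and 3.64, a difference of -1.30 (SE 0.50, adjusted p = 0.411, limma). Adgre1, the gene of F4/80, had levels of 1.52, 0.60, -0.57 and -0.74 against 1.08, 1.83, 1.36 and 1.09, a difference of -1.14 (SE 0.48), and its other probe differed by -1.13. In both genes the sensitive tumour of mouse 2 lay within the vehicle range, and those of mice 3, 4 and 5 lay below it. The list's mean level was 3.08, 2.38, 1.86 and 1.16 in the sensitive tumours and 2.57, 3.04, 2.86 and 2.58 in the vehicle tumours. The mannose receptor gene Mrc1 differed by -1.15 (SE 0.58) and Csf1r by -0.37 (SE 0.44).

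T and NK cell genes varied widely in both groups. Of 20 tested 18 had a higher mean in the sensitive tumours, with a median of 0.87, or 0.34 without vehicle mouse 3, and 0 were past an unadjusted p of 0.05. Ifng, the interferon of these cells, had levels of 2.73, 3.03, 5.43 and 4.95 against 4.32, -0.51, 1.39 and 4.13, so the groups overlapped, with a difference of 1.70 (SE 1.13), or 0.76 (SE 0.91) without vehicle mouse 3. Its regulator Tbx21 differed by 1.17 (SE 0.81) and Cd8a by 0.78 (SE 0.80), or by 0.59 and 0.32 without it. All 12 regulatory T cell and checkpoint genes had a higher mean by the probe used, with a median of 0.52. Without vehicle mouse 3 these were 8 of 12 and 0.08. Ikzf2 differed by 0.49 (SE 0.30), while its other probe differed by -0.39. Il2ra differed by 1.22 (SE 0.90), or by 0.54 without vehicle mouse 3.

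Granulocyte genes had lower medians without vehicle mouse 3 than with it. Neutrophil genes had a median of -0.22, and of -0.75 without it, with Fcnb at -1.04 (SE 0.66) and Lcn2 at 0.32 (SE 0.29). Eosinophil genes had a median of -0.37 and -1.03, and 3 of 10 were lower at an unadjusted p under 0.05 without it (4.57% of all genes were), Prg2, Prg3 and Alox15. Vehicle mouse 3 had the lowest mean level of this list, so leaving it out raises the vehicle mean level. Prg2, the eosinophil major basic protein, had levels of -0.19, -1.32, -2.90 and -1.13 against 1.61, -3.85, -1.37 and 2.16, so that vehicle mice 2 and 5 were the high tumours and vehicle mice 3 and 4 were not. It differed by -1.02 (SE 1.26), and by -2.19 (SE 0.92) without mouse 3. Prg3 differed by -0.55 (SE 0.41) and the eosinophil ribonuclease gene Ear6 by -0.63 (SE 0.60). Mast cell genes had a median of -0.10 (Tpsb2 -0.20, SE 0.20). Among dendritic cell genes, with a median of -0.01, the integrin Itgax had levels of 2.26, 1.97, 1.86 and 1.19 against 2.82, 2.68, 2.25 and 2.75, a difference of -0.80 (SE 0.25, adjusted p = 0.352, limma).

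**Figure D4:**
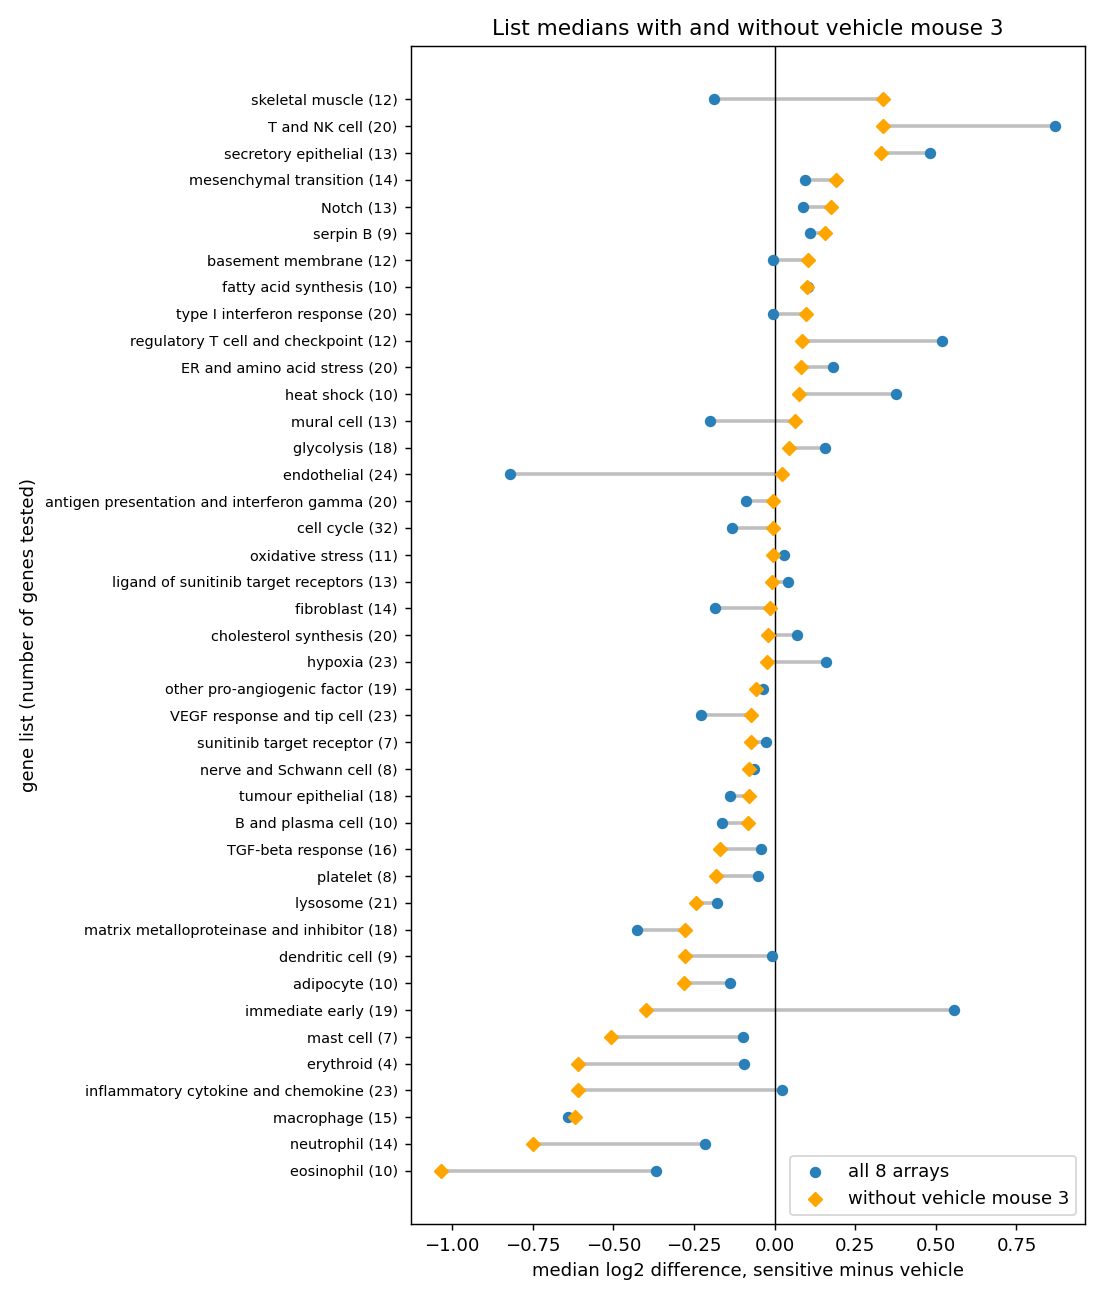
Median log2 difference (x axis, sensitive minus vehicle) of the genes tested in each list (y axis, lists with at least 3 tested genes), with circles for all 8 arrays, diamonds for the fit without vehicle mouse 3, and a grey line joining them. The endothelial (-0.82 to 0.02), immediate early (0.56 to -0.40) and inflammatory cytokine (0.02 to -0.61) lists move far, while the macrophage list is at -0.64 and -0.62.

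Tumour epithelial genes, the keratins and junction genes of the graft, had a median of -0.14 over 18 genes, with Krt18 at 0.44 (SE 0.16) and Krt19 at 0.56 (SE 0.42). Their mean level was lowest in the sensitive tumour of mouse 4, at 2.17, against 3.08 to 3.93 in the other 7. Fibroblast genes had a median of -0.18, with the matrix protein gene Fn1 at 0.43 (SE 0.15) and Lum at -0.70 (SE 0.42). Medians of the other cell type lists were -0.19 for skeletal muscle (0.34 without vehicle mouse 3; Ttn -1.2, SE 1.42, or 0.20 without it; Atp2a1 -0.18, SE 0.22), -0.16 for B and plasma cells (Cd22 -0.53, SE 0.26; Pou2af1 1.44, SE 1.06), -0.14 for adipocytes (Fabp4 -1.41, SE 1.06, or -0.51 without it; Lep -0.37, SE 0.31), -0.09 for erythroid cells (-0.61 without it; Slc4a1 -0.21, SE 0.38; Klf1 0.09, SE 0.19), -0.06 for nerve and Schwann cells and -0.05 for platelets. The platelet chemokine gene Pf4 differed by -0.96 (SE 0.73), and Sox10, a factor of Schwann and of some mammary cells, by 1.05 (SE 0.48).

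Hypoxia genes, which cells switch on when oxygen is short, had a median of 0.16 over 23 genes, or -0.02 without vehicle mouse 3, with 2 of 23 higher at an unadjusted p under 0.05, Stc2 and Car9, a share near the 8.09% of all genes. The secreted glycoprotein gene Stc2 had levels of 0.13, -0.06, -0.11 and 0.91 against -0.64, -2.74, -2.09 and -0.99, groups that did not overlap, with a difference of 1.84 (SE 0.47, adjusted p = 0.311, limma). The carbonic anhydrase gene Car9 differed by 0.60 (SE 0.24). Glycolysis genes had a median of 0.16, or 0.04 without that array, with Aldoc at 0.64 (SE 0.20) and Pfkl at -0.48 (SE 0.18). Under quantile scaling the hypoxia median was -0.01 and the glycolysis median -0.06, so neither list's direction held across scalings.

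Tgfb1, the cytokine TGF-beta 1, had levels of 1.41, 1.59, 2.07 and 1.89 in the sensitive tumours and of 2.55, 2.37, 2.59 and 2.36 in the vehicle tumours, without overlap. Its difference of -0.73 (SE 0.18, adjusted p = 0.306, limma) was -0.76 without vehicle mouse 3, while its list had a median of -0.04, with the repressor Ski at -0.50 (SE 0.18). Of 18 metalloproteinases and their inhibitors 13 had a lower mean, with a median of -0.43, or -0.28 without that array and -0.45 under quantile scaling, with the collagenase Mmp13 at -0.73 (SE 0.29) and the inhibitor Timp2 at 0.47 (SE 0.14). In the mesenchymal transition list (median 0.09) the galectin gene Lgals1 differed by 0.46 (SE 0.18), and in the basement membrane list (median near 0) Nid2 differed by -1.52 (SE 0.81), or by -0.62 (SE 0.33) without vehicle mouse 3.

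Cell cycle genes had a median of -0.13 over 32 genes, or -0.0040 without vehicle mouse 3 (Tyms 0.32, SE 0.15; Mcm6 0.40, SE 0.19) and antigen presentation genes one of -0.09, where the peptide transporter Tap2 differed by 0.38 (SE 0.12) and Irf1 by 0.43 (SE 0.16). Of the 20 type I interferon genes tested 10 were higher (Ifit2 -0.36, SE 0.16; Ddx58 0.29, SE 0.15). All 10 heat shock genes tested had a higher mean, with a median of 0.38, or 8 of 10 and 0.08 without vehicle mouse 3, with the chaperone genes Hspa8 at 0.44 (SE 0.17) and Hspe1 at 0.43 (SE 0.16). Of 20 genes of ER and amino acid stress 16 had a higher mean, with a median of 0.18, or 14 and 0.08 without that array, with the chaperone Pdia4 at 0.78 (SE 0.27) and Asns at 0.46 (SE 0.25). Medians were 0.07 for cholesterol synthesis (Mvk 0.36, SE 0.15; Srebf2 -0.58, SE 0.26), 0.10 for fatty acid synthesis, -0.18 for the lysosome (Mcoln1 0.34, SE 0.14; Hexa -0.63, SE 0.30), 0.11 for serpins of clade B (Serpinb6a 0.36, SE 0.15; Serpinb1a -0.82, SE 0.57) and 0.03 for oxidative stress (Sod2 0.51, SE 0.23, or 0.30 without vehicle mouse 3; Gsta4 0.61, SE 0.28). Thrsp, a regulator of lipid synthesis, was at least 1.99-fold higher in the sensitive tumours (means -4.11 and -6.04, adjusted p = 0.352, limma), and Srebf1 differed by 0.27 (SE 0.18).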

How the data were processed

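Each RNA sample was hybridised alone to an Agilent mouse array. The deposited scanner files hold intensity values, background subtracted within each array, made per the file headers by Agilent Feature Extraction 10.7.3.1, while 9.1 is the version in the submitters' processing notes. A deposited table with every sample holds intensity values that the authors normalised by a method not given in the sources used here; it is on a linear scale, its column medians lie between 120.02 and 125.2, and its centring is unknown. It was used as an alternative after log2.

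Replicate spots of 55681 probes were averaged, with control spots and outlier flags left out. Probes were named by RefSeq accession through the RefSeq table of GRCm38.p6: 26582 probes for 20145 genes, each represented by its brightest probe over all arrays. The 18724 unnamed probes tested apart gave 0 calls in limma (3197 at an unadjusted p under 0.05). From each array's log2 processed signals its 75th percentile was subtracted. Genes entered a test when well above background on at least 4 of the 8 arrays (2 for sets with smaller tumours). No spot was saturated. Replicates are separate mice, and the number of arrays limits precision.

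limma 3.58.1 in R 4.3.3 with the data.table package, version 1.17.8, fitted the 8 arrays alone (6 residual degrees of freedom), with lmFit, eBayes and Benjamini-Hochberg adjustment at 0.05. SE is limma's moderated error and SD the spread between arrays. Tested on simulated data of this comparison (16563 genes), the fit recovered 92 of 100 genes changed by 3 and 44 of 100 changed by 1 (log2), with 7 false calls. How far these counts hold for the measured arrays was not tested. On those arrays Plb1 (4.77) and Tfap2b (3.68) passed, but Wfdc18 (4.20), Elf5 (3.87), Defb1 (3.85), Ptn (3.53) and BC006965 (3.35) did not. The share of detected probes was tested with scipy 1.17.1, and Python 3.11.15 with matplotlib 3.10.9 drew the plots.

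Members, lists and rules were chosen with earlier results of these data known. The text names the 15 largest changes among passing genes whose arrays do not overlap (where fewer than 5 pass in a direction, the 10 smallest p), the 2 members of each list with the smallest p, and always Pecam1, Vegfa and the receptors Csf1r, Kit, Pdgfrb, Pdgfra, Flt1 and Kdr. Chosen after their values were seen were Wap, Mfge8, Spdef, Cited1, Ptn, Fos, Cxcl2, Btg2, Junb, Zfp36, Fosb, Csf3, Il10, Tnf, Prg2, Cd8a, Ankrd37, Mrc1 and Hspa1a, and members named only as part of a count or range. Of the genes that this rule gives, 2 are not reported here. The alternatives were normexp (offset 50, on the median signal, as the files used hold no mean signal), quantile and median scaling, the deposited table, other filters and probe rules, all 12 bulk arrays at 1300 mm3 (with and without the slide as a block), array weights, mouse number as a block, and leaving out each array.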

Additional observations from a re-analysis of the deposited data

Results flagged for a closer look

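Among 338 groups of 4 arrays, from the named genes, the list means and the share of probes above background, 23 held an array beyond Dixon's critical value, where chance gives about 1 in 20. The vehicle array of mouse 3 was the one that stood apart in 14 of them. Of the 9 genes among these, 8 were chosen after their values were seen (all but Nid2), so the count is no measure of how often it stands apart. It was low in the immediate early genes Fos (1.95), Btg2 (1.90), Junb (1.37), Zfp36 (-2.25) and Fosb (0.11), in the cytokine genes Cxcl2 (-3.39) and Tnf (-2.80) and in the heat shock gene Hspa1a (1.42), and high in Nid2, a basement membrane gene (0.56). Its list means stood apart for endothelial (1.34), Notch (0.20), other pro-angiogenic (-0.41), inflammatory cytokine and chemokine (-0.13) and immediate early genes (1.78).

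Other arrays stood apart in single genes or lists. In the sensitive group these were mouse 3 in Fga (-1.61) and Ankrd37 (2.39), mouse 2 in Nufip2 (2.26), mouse 4 in Rgs5 (-0.068), and mouse 5 in Timp2 (6.08) and in the other pro-angiogenic list (-0.28). In the vehicle group these were mouse 5 in Defb1 (-5.64), mouse 4 in Pfkl (4.10) and mouse 2 in the fibroblast list (2.68).

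The effect of treatment differed between fractions or stages for 2 genes in limma. For H2-M10.2, a non-classical MHC gene, the EC effect minus the bulk effect was -2.34 (adjusted p = 0.0191). For Avpr1b the effect at 1300 mm3 minus that in smaller tumours was 1.97 (adjusted p = 0.0191). Both genes were too dim to be tested within the bulk tumours at 1300 mm3, and Avpr1b in smaller tumours too, so these differences rest on bulk values near or below background. Neither call held in every fit that left out 1 mouse.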

How the results depend on the processing

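The 4 calls of the bulk comparison depended on the processing. Calls numbered 0 with normexp, with quantile scaling, and with all 12 bulk arrays, with or without the slide as a block. Calls also numbered 0 among genes well above background on all 8 arrays, a set that the 4 genes could not enter. They numbered 2 in the deposited table, where Plb1 alone of the 4 genes passed, 18 with no filter and 79 with array weights, where vehicle mouse 5 had a weight of 6.48. Median scaling gave 6 and the mean of probes 3, and leaving out 1 array gave 0 to 24. The 4 genes all passed with no filter, median scaling, array weights and without vehicle mouse 2. With mouse number as a replicate block 1 gene passed, Elf5 (adjusted p = 0.00832, limma), but the numbers do not pair these animals: deviations of same-numbered mice correlated at -0.26, 0.22, -0.32 and 0.09.

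EC calls ranged from 0 to 1 over fits without 1 array. The difference between fractions gave 0 calls with normexp and 0 with the replicate block, and 0 to 6 without 1 mouse. Smaller tumours gave 3 with normexp and 0 to 209 without 1 array, the 209 without day 9 sunitinib replicate 2. The difference between stages gave 0 with the replicate block and 0 to 8 without 1 array.

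Genes that changed sign were Lyve1 (normexp 0.29), Klf1 (quantile -0.071, median scaling -0.010, array weights -0.029), Kdr (mean of probes -0.34), Lgals1 (deposited -0.060) and Junb (normexp -0.073, quantile -0.10, median scaling -0.10, deposited -0.16, array weights -0.65). With array weights Cxcl2 (-0.84), Fosb (-0.30), Tnf (-0.29) and Cd8a (-0.12) did too. Over fits without 1 array the ranges that crossed 0 were Lyve1 -0.52 to 0.053, Kit -0.13 to 0.76, Slc4a1 -0.43 to 0.15, Klf1 -0.017 to 0.19, Ttn -2.14 to 0.20, Pdgfra -0.21 to 0.20, Vegfa -0.75 to 0.00065, Fos -0.11 to 1.30, Cxcl2 -1.02 to 1.94, Junb -0.87 to 0.31, Zfp36 -0.98 to 0.40, Fosb -0.58 to 1.62, Tnf -0.58 to 1.89 and Hspa1a -0.017 to 1.30. The cause was not tested. Signal over background limits the called genes, which were dim on every vehicle array.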
